A study of Homo sapiens with 18 samples.

Results

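Versican (VCAN), vimentin (VIM), RPS6KA2, HUNK and IGSF10 are 5 of the 57500 Ensembl genes counted in THP-1 cells, and they were chosen by their fold changes in earlier results of these same libraries, in which each of them differed from the control line in both NR4A knockdown lines. They were found in the deposited tables by gene symbol, and each symbol matched 1 gene. THP-1 is a human monocytic leukaemia line that grows in suspension. All cells carried a lentiviral short hairpin RNA and were kept under puromycin. The hairpin was without a target in shNT cells, against the orphan nuclear receptor NR4A2 in shNR4A2 cells and against its relative NR4A3 in shNR4A3 cells. Each of the 3 lines was either left unstimulated (control) or exposed for 2 h to LPS, the bacterial lipopolysaccharide, at 2.5 μg/ml. The 6 groups held 3 libraries each, described in the study as independent experiments. Each hairpin was present in 1 stable line, so an effect of the hairpin and a property of the line cannot be told apart. RNA of whole cultures was sequenced, so fewer cells using a gene and less RNA per cell cannot be told apart either. Library totals of gene counts ran from 16171161 to 23929138 (median 19639071).

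The NR4A receptors are transcription factors that need no known ligand and whose own genes are switched on within minutes to hours by inflammatory signals. The DNA sequence that a lone NR4A molecule recognises is called the NBRE, short for NGFI-B response element. Versican is a large chondroitin sulfate proteoglycan of the extracellular matrix that binds hyaluronan, and monocytes and macrophages are among its sources. Vimentin is the main intermediate filament protein of mesenchymal cells and leukocytes. RPS6KA2 encodes RSK3, a serine/threonine kinase that is activated by ERK. HUNK is a kinase of the AMPK-related family, and IGSF10 is a large member of the immunoglobulin superfamily.

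The hairpin targets were lower in their own lines. Levels are given as RPKM, reads per kilobase of merged exons relative to the size of the library, here scaled by TMM, so that levels can be compared between genes and between groups. NR4A2 stood at 18.4, 21.3 and 15.6 RPKM in shNT cells with LPS and at 6.57, 8.09 and 4.62 in shNR4A2 cells with LPS. NR4A3 stood at 9.16, 9.22 and 9.72 RPKM in shNT cells with LPS and at 5.46, 5.29 and 5.16 in shNR4A3 cells with LPS. The libraries of a knockdown line and of shNT did not overlap in either case. The log2 fold change was -1.52 (SE 0.192, adjusted p = 0.00265) for NR4A2 and -0.82 (SE 0.0799, adjusted p = 0.000556) for NR4A3, by edgeR's quasi-likelihood test with Benjamini-Hochberg adjustment over all genes tested. Without LPS the changes were -0.91 (SE 0.228, adjusted p = 0.0359) for NR4A2 and -2.47 (SE 0.49, adjusted p = 0.00767) for NR4A3, the latter from 1 to 5 counts per shNR4A3 library. LPS acted in all 3 lines, since CCL20, a chemokine gene that LPS induces in monocytes, rose by 7.48, 8.15 and 7.90 on the log2 scale in shNT, shNR4A2 and shNR4A3 cells (SE 0.196, 0.314 and 0.292, adjusted p = 2.83e-12, 2.43e-09 and 1.07e-08 by edgeR). TNF, the inflammatory cytokine gene, rose by 5.23, 5.14 and 6.14 (SE 0.145, 0.212 and 0.223, adjusted p = 4.48e-12, 4.4e-09 and 9.36e-09).

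VCAN (ENSG00000038427) lies on chromosome 5 from 83471465 to 83582303 (GRCh38, plus strand), with 14831 bases of merged exons. Without LPS it stood at 2.18, 1.37 and 1.97 RPKM in shNT cells, at 7.34, 4.75 and 6.37 in shNR4A2 cells and at 6.44, 6.62 and 8.3 in shNR4A3 cells. With LPS it stood at 1.45, 1.36 and 1.13 RPKM in shNT cells, at 4.69, 4.55 and 4.48 in shNR4A2 cells and at 6.94, 6.64 and 7.08 in shNR4A3 cells. Every library of a knockdown line was above every shNT library. The lowest VCAN level of the knockdown lines was in shNR4A2 cells with LPS, which lay below the shNR4A2 control libraries and below all shNR4A3 libraries. The control libraries of shNR4A2 and shNR4A3 overlapped.

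VIM (ENSG00000026025) lies on chromosome 10 from 17228259 to 17237593 (plus strand) and was the most abundant of these genes. Without LPS it stood at 27.5, 28.7 and 25.2 RPKM in shNT cells, at 60, 59.9 and 65.8 in shNR4A2 cells and at 44.7, 40.9 and 58.4 in shNR4A3 cells. With LPS it stood at 42.5, 41.8 and 39 RPKM in shNT cells, at 116, 105 and 108 in shNR4A2 cells and at 77, 74.2 and 93.6 in shNR4A3 cells. The group means ran from 27.1 ± 1.79 RPKM in shNT control cells to 110 ± 6.2 in shNR4A2 cells with LPS (SD, n = 3). Neighbours in the order of the 6 group means did not overlap, except the shNR4A3 control libraries and the shNT libraries with LPS. The order placed both LPS groups of the knockdown lines first and shNT control last.

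RPS6KA2 (ENSG00000071242), on chromosome 6 from 166409364 to 166906451 (minus strand), showed a plain division between the lines. In shNT cells it stood at 1.03, 0.692 and 0.846 RPKM without LPS and at 1.1, 0.942 and 1.03 with LPS. In shNR4A2 cells it stood at 3.31, 2.39 and 2.72 RPKM without LPS and at 3.39, 2.86 and 3.34 with LPS. In shNR4A3 cells it stood at 2.6, 2.7 and 2.63 RPKM without LPS and at 3.23, 3.51 and 3.39 with LPS. The 12 libraries of the knockdown lines lay between 2.39 and 3.51 RPKM and the 6 shNT libraries between 0.692 and 1.1, so that the ranges were far apart. In the order of the 4 knockdown groups each neighbouring pair overlapped.

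HUNK (ENSG00000142149), on chromosome 21 from 31873315 to 32044633 (plus strand), went the other way and was close to the floor of detection in both knockdown lines. Without LPS it had 97, 114 and 160 counts in shNT cells, 12, 17 and 14 in shNR4A2 cells and 17, 13 and 9 in shNR4A3 cells. With LPS it had 81, 98 and 72 counts in shNT cells, 8, 11 and 10 in shNR4A2 cells and 19, 12 and 21 in shNR4A3 cells. As levels, the shNT libraries ran from 0.425 to 0.891 RPKM and the knockdown libraries from 0.0569 to 0.136. With so few reads, differences of HUNK between the knockdown groups are measured with little precision.

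IGSF10 (ENSG00000152580), on chromosome 3 from 151425384 to 151458709 (minus strand), followed the same course. Without LPS it had 162, 142 and 193 counts in shNT cells, 32, 31 and 25 in shNR4A2 cells and 13, 25 and 18 in shNR4A3 cells. With LPS it had 91, 146 and 126 counts in shNT cells, 16, 38 and 23 in shNR4A2 cells and 10, 17 and 18 in shNR4A3 cells. The shNT libraries ran from 0.4 to 0.76 RPKM and the knockdown libraries from 0.0506 to 0.172. Neither gene had a knockdown library that reached the lowest shNT library, and the 4 knockdown groups of IGSF10 overlapped from each to the next.

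**Figure D1:**
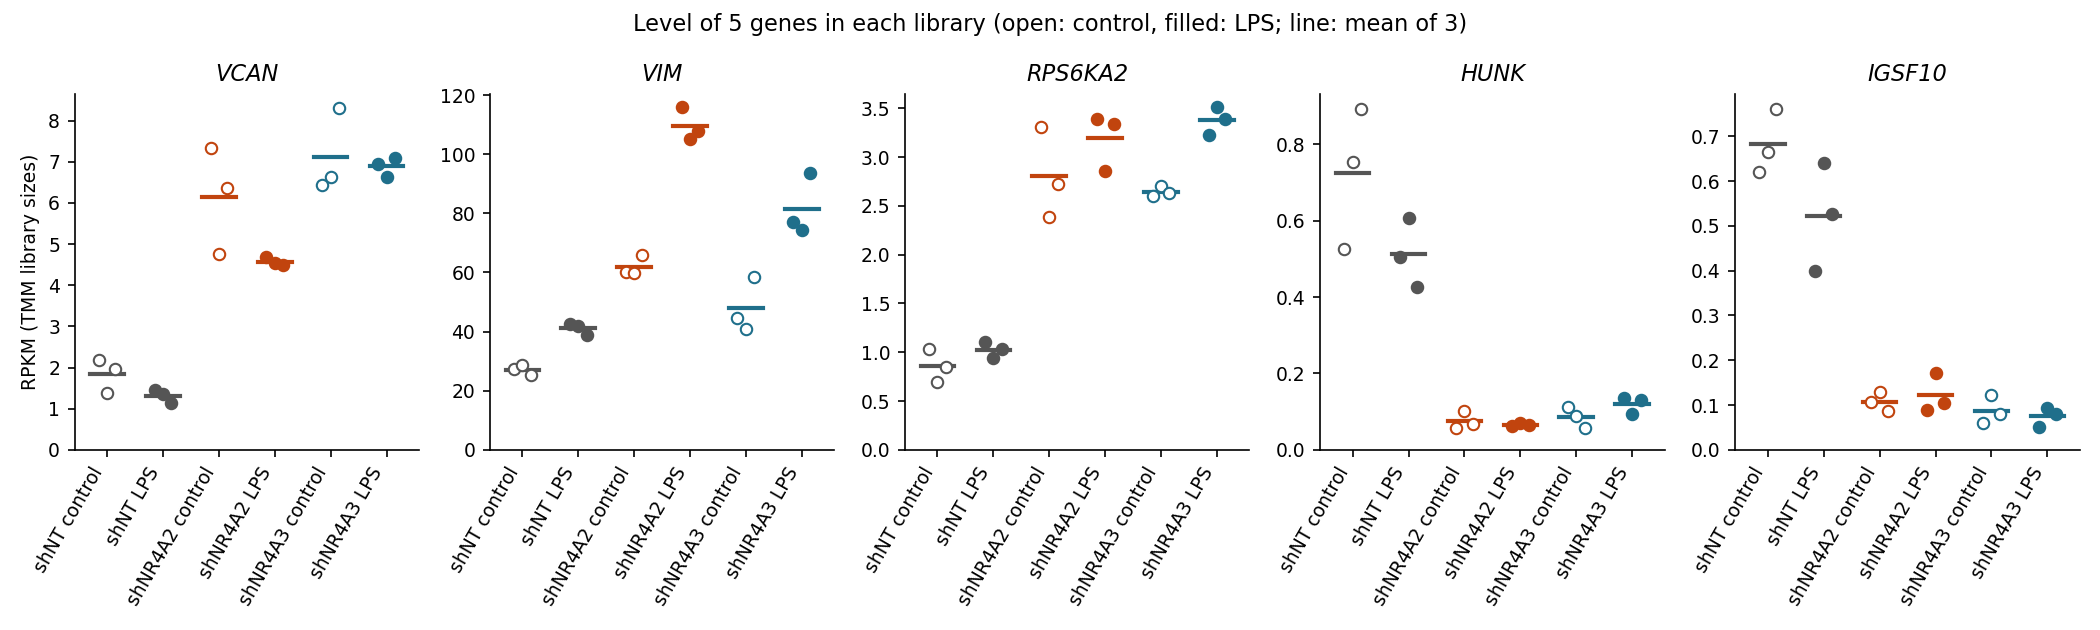
Level of each gene in the 18 libraries, as RPKM with TMM library sizes on a linear axis that starts at 0; open points are control libraries, filled points are LPS libraries, and lines are means of 3 libraries. In VCAN, VIM and RPS6KA2 the knockdown libraries sit above the shNT libraries of the same treatment, with VIM up to 116 RPKM, and in HUNK and IGSF10 they sit below, at 0.172 RPKM or less.

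The 4 comparisons of a knockdown line with shNT chose these genes, so their fold changes there are a description without a test. Against shNT without LPS, VCAN was higher by 1.75 (SE 0.185) on the log2 scale in shNR4A2 cells and by 1.95 (SE 0.152) in shNR4A3 cells, and with LPS by 1.80 (SE 0.111) and 2.39 (SE 0.105). RPS6KA2 lay between 1.62 (SE 0.145) and 1.72 (SE 0.109) in shNR4A3 cells and between 1.64 (SE 0.125) and 1.71 (SE 0.172) in shNR4A2 cells. Of these 8 values, VCAN in shNR4A3 cells with LPS had the largest.

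The change of VIM was smaller, at 1.20 (SE 0.0959) without LPS and 1.42 (SE 0.0867) with LPS in shNR4A2 cells and at 0.82 (SE 0.119) and 0.99 (SE 0.0988) in shNR4A3 cells. HUNK was lower, with -3.27 (SE 0.293) and -2.94 (SE 0.268) in shNR4A2 cells and -3.07 (SE 0.297) and -2.07 (SE 0.251) in shNR4A3 cells, without and with LPS. IGSF10 stood at -2.66 (SE 0.206) and -2.08 (SE 0.288) in shNR4A2 cells and at -2.96 (SE 0.241) and -2.80 (SE 0.282) in shNR4A3 cells. In shNR4A2 cells no gene tested had a lower log2 fold change than HUNK in either state. In shNR4A3 cells HUNK ranked 6 without LPS and 19 with LPS, counted from the lowest log2 fold change.

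All 5 genes passed the filter on low counts in every comparison. Their libraries did not overlap with shNT in any of the 4 comparisons, where 26.1% (shNR4A2) and 25.7% (shNR4A3) of all genes tested were without overlap in the absence of LPS and 27.7% and 27.4% in its presence. The comparisons of the 2 knockdown lines share the shNT libraries. Leaving out any 1 library moved the log2 fold changes by little, and the widest range over the 20 values was -3.27 to -2.75, for IGSF10 in shNR4A3 cells without LPS.

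**Figure D2:**
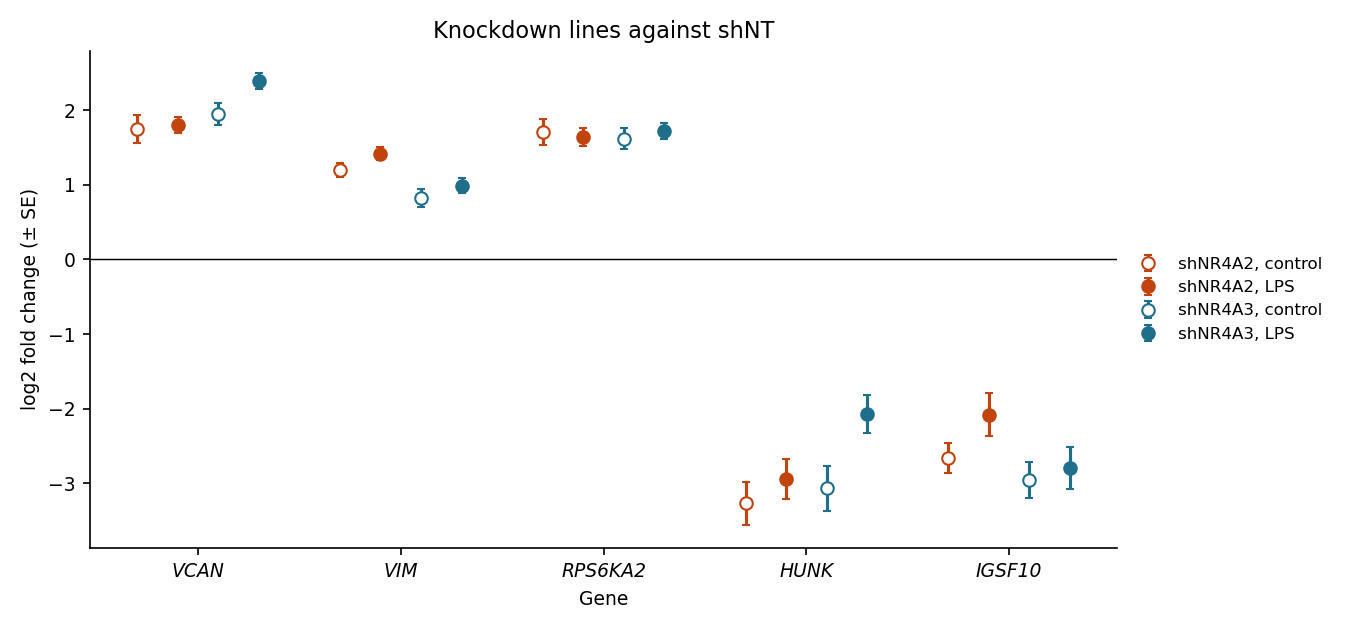
Log2 fold change of each gene in the knockdown lines against shNT of the same treatment, with the SE of the edgeR fit on 6 libraries (bars); open points are without LPS and filled points with LPS. VCAN, VIM and RPS6KA2 lie between 0.82 and 2.39 and HUNK and IGSF10 between -3.27 and -2.07, in both lines and both states.

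The response to LPS was not used to choose the genes and was tested in each line. VIM was the one that responded in every line, and it rose by 0.60 (SE 0.0823, adjusted p = 9.88e-05) in shNT, 0.82 (SE 0.113, adjusted p = 0.000217) in shNR4A2 and 0.77 (SE 0.138, adjusted p = 0.00163) in shNR4A3 cells, with every LPS library above every control library (edgeR). Among all genes tested, 40%, 36.2% and 43.7% were without overlap between LPS and control libraries. As linear folds these are 1.52, 1.77 and 1.71. Of the 5 genes, 2 passed the test in shNT cells, 1 in shNR4A2 cells and 2 in shNR4A3 cells, beside 24.9%, 19.3% and 28.1% of all genes tested.

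VCAN fell with LPS by 0.49 on the log2 scale in shNT cells (SE 0.157, adjusted p = 0.0365 by edgeR), although 1 control library (1.37 RPKM) lay within the range of the LPS libraries. The call did not hold without shNT control replicate 1 (adjusted p = 0.165) or 3 (0.103), or without LPS replicate 2 (0.0716) or 3 (0.149). In shNR4A2 cells the log2 fold change was -0.43 (SE 0.15, adjusted p = 0.0634), whereas a fit blocked on replicate number gave -0.41 (adjusted p = 0.0238, edgeR) and called 30.1% of all genes tested. It also passed when no genes were filtered out (-0.47, adjusted p = 0.0115) and when all 18 libraries shared 1 fit (-0.43, adjusted p = 0.0462). Without shNR4A2 control replicate 2, the lowest control library, it was -0.59 with an adjusted p of 0.0074. In shNR4A3 cells the log2 fold change of VCAN was -0.04 (SE 0.107, adjusted p = 0.809), with a normal 95% interval of -0.25 to 0.17.

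RPS6KA2 rose by 0.36 on the log2 scale in shNR4A3 cells with LPS (SE 0.0991, adjusted p = 0.0196 by edgeR), from a mean of 2.64 to 3.38 RPKM. This call did not hold without shNR4A3 control replicate 1 (adjusted p = 0.0608) or 3 (0.0591), without LPS replicate 3 (0.0652), without the filter on low counts (0.0618) or with all 18 libraries in 1 fit (0.052), in edgeR. In shNT and shNR4A2 cells its log2 fold changes with LPS were 0.26 (SE 0.164, adjusted p = 0.294) and 0.18 (SE 0.152, adjusted p = 0.449).

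HUNK and IGSF10 did not pass the test of the LPS response in any line. HUNK stood at -0.50 (SE 0.214, adjusted p = 0.112) in shNT cells, and without shNT control replicate 1 at -0.69 (adjusted p = 0.0305, edgeR). In shNR4A2 and shNR4A3 cells the log2 fold changes of HUNK were -0.18 (SE 0.386) and 0.50 (SE 0.357), and those of IGSF10 in the 3 lines were -0.38 (SE 0.179), 0.19 (SE 0.331) and -0.22 (SE 0.375), with adjusted p from 0.141 to 0.796 (edgeR).

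The size of these responses rests on the TMM scaling. On TPM, where each library sums to the same total, the median gene was 0.22 to 0.27 lower in the log2 ratio of LPS to control than on the TMM scale, in each of the 3 lines. On TPM the log2 ratio of VIM was 0.39, 0.55 and 0.54 and that of VCAN was -0.70, -0.70 and -0.27 in shNT, shNR4A2 and shNR4A3 cells. The sign differed between the scales in shNR4A2 cells for RPS6KA2, at -0.09 on TPM, and IGSF10, at -0.07 on TPM, and RPS6KA2 in shNR4A3 cells, at 0.13 on TPM, then had overlapping libraries. Conversely, on TPM the LPS libraries of VCAN in shNT and shNR4A3 cells and of IGSF10 in shNT cells, at -0.60, all lay below the control libraries, while they overlapped on the TMM scale.

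With 3 libraries a group, an exact permutation test of single genes cannot give a 2-sided p under 0.1, which it gave for VIM in each line. The difference of the LPS effect between a knockdown line and shNT, an interaction of line and LPS over 12 libraries, did not pass the test for any of the 5 genes. It sets the change against shNT with LPS beside that without LPS, and these same comparisons chose the genes. Little difference is therefore what the choice favours, and the lack of a call decides nothing for them. The largest estimate was for HUNK in shNR4A3 against shNT cells, at 0.99 (SE 0.417, unadjusted p = 0.0306, adjusted p = 0.952 by edgeR). VCAN in the same comparison stood at 0.44 (SE 0.207, unadjusted p = 0.0499, adjusted p = 0.985, edgeR). By edgeR no gene of the whole table passed in either interaction, with 365 (shNR4A2) and 824 (shNR4A3) genes at an unadjusted p under 0.05, and DESeq2 called 2 and 10 genes. With replicate number as a block edgeR called 0.048% and 0.134% of the genes tested, and none of the 5, although the numbers were not taken to pair these libraries.

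The knockdown lines were then compared with each other. The genes had been grouped as shared between the lines, so little difference is what the choice of genes favours. With LPS, VCAN was lower in shNR4A2 than in shNR4A3 cells by 0.59 on the log2 scale (log2 fold change -0.59, SE 0.0788, adjusted p = 0.00915 by edgeR), a fold of 1.5, and the libraries did not overlap. Without overlap were 23.2% of all genes tested with LPS and 19.6% without LPS. Without shNR4A3 LPS replicate 1 or 3 the adjusted p was 0.0534 and 0.0624 (edgeR). It was the only one of the 5 that passed the test with LPS, where 2.33% of all genes tested did, and none of the 5 passed without LPS, where 3.08% did. Without LPS the log2 fold change of VCAN was -0.20 (SE 0.152, adjusted p = 0.624, edgeR).

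VIM was higher in shNR4A2 than in shNR4A3 cells by 0.37 without LPS (SE 0.128, adjusted p = 0.162) and by 0.43 with LPS (SE 0.109, adjusted p = 0.0851), again without overlap of the libraries, and edgeR did not call it. With the replicate number as a block the differences were 0.39 (adjusted p = 0.00494) and 0.44 (adjusted p = 0.000583), and edgeR called both, beside 11.6% and 23.6% of all genes tested. DESeq2 called VIM with LPS (adjusted p = 0.0246), as did edgeR with all 18 libraries in 1 fit (0.0302), and without a filter edgeR called it in both states (0.0327 and 0.0045).

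For RPS6KA2 the differences between the knockdown lines were 0.09 (SE 0.137) without LPS and -0.07 (SE 0.106) with LPS, with 95% intervals of -0.17 to 0.36 and -0.28 to 0.13. HUNK stood at -0.20 (SE 0.394) and -0.86 (SE 0.317, adjusted p = 0.205 by edgeR), without overlap of the libraries in the latter. IGSF10 stood at 0.30 (SE 0.336) and 0.72 (SE 0.369, adjusted p = 0.355 by edgeR).

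**Figure D3:**
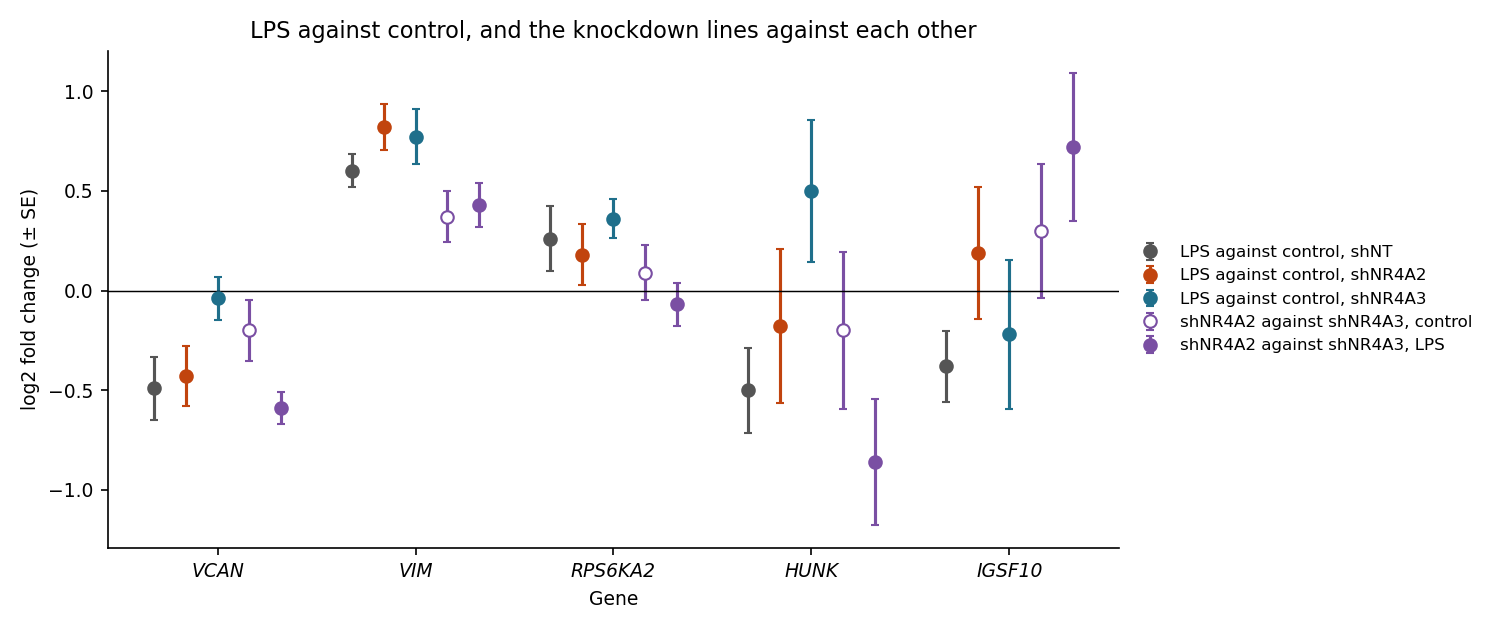
Log2 fold change (point) and SE (bar) of each gene for LPS against control in the 3 lines and for shNR4A2 against shNR4A3 without LPS (open) and with LPS (filled), by edgeR. VIM is above 0 in each comparison, from 0.37 to 0.82, and the bars of HUNK and IGSF10 are the widest.

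Relatives or known partners of each of the 5 were followed as lists. Calls of list genes are from the fits without replicate number as a block, unless the block is named. With the block more genes passed, as given below, so a gene that did not pass here may pass there. Around VCAN stood 41 genes of proteoglycans, hyaluronan and the enzymes that make or cut them. In shNR4A2 cells 5 of the 27 tested were higher and 2 lower without LPS, and 4 of 28 were higher and 0 lower with LPS, beside 3.63% higher and 2.82% lower, and 4.31% higher and 2.65% lower, of all genes tested (6.45% and 6.96% in all). In shNR4A3 cells 1 of 26 was higher and 4 lower without LPS, and 2 of 27 were higher and 3 lower with LPS, beside 3.91% higher and 3.32% lower, and 3.99% higher and 2.46% lower, of all genes tested (7.23% and 6.45% in all). The median log2 fold change of the list lay between 0.01 and 0.22, while that of all genes tested was within 0.01 of 0.

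SDC4 (syndecan-4), a heparan sulfate proteoglycan of the cell surface, rose in all 4 comparisons, by 1.45 (SE 0.183, adjusted p = 0.000869) and 1.35 (SE 0.178, adjusted p = 0.00324) in shNR4A2 cells and by 0.93 (SE 0.181, adjusted p = 0.00681) and 1.12 (SE 0.195, adjusted p = 0.0102) in shNR4A3 cells, without and with LPS (edgeR). The last of these did not hold without shNT LPS replicate 2 (adjusted p = 0.051). SDC4 is itself an LPS-responsive gene here, with 3.3 ± 0.918 RPKM in shNT control cells and 60 ± 7.42 with LPS (SD, n = 3).

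SRGN (serglycin), the proteoglycan of granules in blood cells and the most abundant gene of the list, fell without LPS, with log2 fold changes of -0.63 in shNR4A2 cells (SE 0.0867, adjusted p = 0.00158) and -0.55 in shNR4A3 cells (SE 0.0837, adjusted p = 0.00135). Its mean was 2693 RPKM in shNT control cells. With LPS it stood at -0.30 (adjusted p = 0.0755) in shNR4A2 cells and at -0.36 (adjusted p = 0.0323) in shNR4A3 cells, and the latter call was lost in 4 of 6 fits with 1 library left out, with adjusted p up to 0.153 (edgeR). SDC2 (syndecan-2) fell in shNR4A3 cells, with -0.70 in each state (SE 0.0901 and 0.085, adjusted p = 0.000399 and 0.00169), and stood at -0.15 and -0.11 in shNR4A2 cells, where it did not pass.

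CD44, the main hyaluronan receptor of leukocytes, rose in shNR4A2 cells by 0.59 without LPS (SE 0.113, adjusted p = 0.00977) and by 0.80 with LPS (SE 0.168, adjusted p = 0.0234), and in shNR4A3 cells by 0.86 with LPS (SE 0.185, adjusted p = 0.0239), while it stood at -0.06 there without LPS (edgeR). Both calls with LPS were lost in 5 of 6 fits with 1 library left out, with adjusted p up to 0.0989 and 0.102, and the call without LPS in 1 of 6 (0.0548) and with all 18 libraries in 1 fit (0.056). TNFAIP6, a hyaluronan-binding protein that LPS induces, rose by 9.28 on the log2 scale with LPS in shNT cells (SE 0.247, adjusted p = 3.11e-12) and did not pass the test in any of the 4 comparisons of a knockdown line with shNT (0.14 to 0.60).

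Around VIM stood 29 genes of intermediate filaments, their linker proteins and regulators of the mesenchymal state. In shNR4A2 cells 4 of 22 tested were higher without LPS and 2 of 19 with LPS, and none was lower. In shNR4A3 cells 1 of 18 was higher and 3 lower without LPS, and 0 of 19 were higher and 1 lower with LPS, or 5.26% called beside 6.45% of all genes. In the other 3 comparisons 18.2%, 10.5% and 22.2% of the VIM list were called, beside 6.45%, 6.96% and 7.23%. LMNA (lamins A and C, intermediate filaments of the nucleus) rose in shNR4A2 cells by 0.58 in each state (SE 0.109 and 0.098, adjusted p = 0.00914 and 0.00978), and stood at 0.16 and 0.05 in shNR4A3 cells. With LPS, that LMNA call did not hold without shNT LPS replicate 2 (adjusted p = 0.0594) or 3 (0.0533). LGALS1, the most abundant gene of the list, stood between 0.03 and 0.27 and passed in none of the 4 comparisons of a knockdown line with shNT.

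S100A4 rose by 0.40 and 0.42 without LPS in the lines (adjusted p = 0.0454 and 0.0143) and INA, a neuronal intermediate filament gene, fell in shNR4A3 cells, with -1.59 and -1.37 (adjusted p = 0.0332 and 0.047). Each of these 4 calls was lost in 3 or 4 of 6 fits with 1 library left out (edgeR).

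Around RPS6KA2 stood 27 genes of the RAS, RAF, ERK and RSK kinases and their inhibitors. In shNR4A2 cells 0 of 25 passed without LPS and 2 of 25 were higher with LPS, and in shNR4A3 cells 2 of 24 and 1 of 25 were higher. None was lower. These are 0%, 8%, 8.33% and 4% of the genes tested, beside 3.63%, 4.31%, 3.91% and 3.99% of all genes that were higher and 6.45%, 6.96%, 7.23% and 6.45% called in either direction. RPS6KA4 (MSK2), a related kinase of the nucleus, rose in shNR4A3 cells by 0.80 without LPS (SE 0.113, adjusted p = 0.000825) and 0.75 with LPS (SE 0.0893, adjusted p = 0.00155), and in shNR4A2 cells by 0.56 with LPS (SE 0.104, adjusted p = 0.0136), a call lost in 4 of 6 fits with 1 library left out. PEA15, which binds ERK, rose by 0.42 in shNR4A3 cells without LPS (adjusted p = 0.00795, and 0.108 with all 18 libraries in 1 fit). RPS6KA1 (RSK1), a close relative of RPS6KA2, rose by 0.33 in shNR4A2 cells with LPS (adjusted p = 0.0485), and no fit with 1 library left out kept that call.

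Around HUNK stood 25 genes of AMPK, its related kinases and their activators. With all 6 libraries and no block, none was higher in any of the 4 comparisons. In shNR4A2 cells 2 of 22 were lower without LPS and 1 of 21 with LPS, and in shNR4A3 cells 2 of 22 and 2 of 21. These are 9.09%, 4.76%, 9.09% and 9.52% of the genes of the list tested, beside 2.82%, 2.65%, 3.32% and 2.46% of all genes that were lower and 6.45%, 6.96%, 7.23% and 6.45% called in either direction. BRSK2, an AMPK-related kinase best known from neurons, fell in all 4, with -1.71 (SE 0.276, adjusted p = 0.00411) and -1.85 (SE 0.346, adjusted p = 0.0147) in shNR4A2 cells and -2.63 (SE 0.271, adjusted p = 6.42e-05) and -2.01 (SE 0.302, adjusted p = 0.00466) in shNR4A3 cells, without and with LPS. In shNR4A2 cells with LPS the call did not hold without shNT LPS replicate 1 (adjusted p = 0.0601) or shNR4A2 LPS replicate 1 (0.0574). BRSK2 was scarce, at 0.642 ± 0.115 RPKM in shNT control cells (SD, n = 3).

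NUAK1, another AMPK-related kinase, fell in shNR4A3 cells, with -1.29 (SE 0.199, adjusted p = 0.00151) and -1.42 (SE 0.229, adjusted p = 0.00667) and stood at 0.37 and 0.23 in shNR4A2 cells, where it did not pass. CAB39L, a scaffold of the kinase LKB1, fell in shNR4A2 cells without LPS (log2 fold change -0.80, adjusted p = 0.0159), a call that did not hold without shNT control replicate 1 (0.0681, edgeR). The most abundant genes of the list, MELK, PRKAA1 and CAB39, lay between -0.16 and 0.18 and passed in none of the 4.

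Around IGSF10 stood 20 genes of the IGSF family and of relatives with similar repeats, of which 9 or 10 could be tested in the comparisons with shNT. In shNR4A2 cells 2 of 10 were higher in each state, in shNR4A3 cells 2 of 9 and 1 of 10, and none was lower. Of all genes tested, 3.63%, 4.31%, 3.91% and 3.99% were higher. IGSF6, a gene of myeloid cells, rose in shNR4A3 cells by 1.65 (SE 0.337, adjusted p = 0.00948) without LPS and by 1.54 (SE 0.302, adjusted p = 0.0164) with LPS, and the latter was lost in 4 of 6 fits with 1 library left out. IGSF1 rose in shNR4A2 cells by 0.98 and 1.11 (adjusted p = 0.0395 and 0.0164), and IGSF9 by 1.29 in shNR4A2 and 1.19 in shNR4A3 cells without LPS (adjusted p = 0.0216 and 0.0258). The IGSF1 calls were lost in 4 and 1 and the IGSF9 calls in 5 and 6 of 6 fits with 1 library left out (edgeR).

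**Figure D4:**
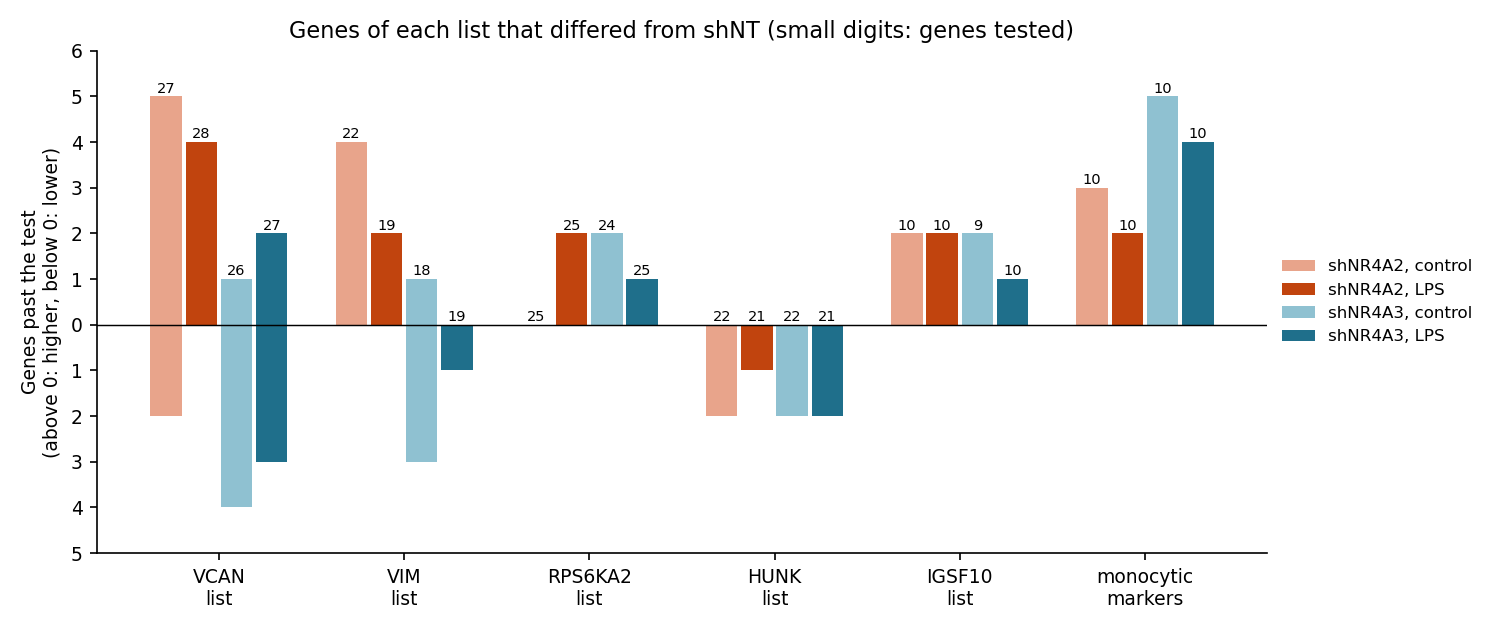
Number of genes of each list that were higher (above 0) or lower (below 0) than in shNT cells by edgeR at an adjusted p under 0.05, with the number tested in small digits; the last set is 10 monocytic markers. The HUNK list has genes only below 0 and the RPS6KA2 list, the IGSF10 list and the monocytic markers only above 0 in these 4 comparisons.

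More genes of the lists around VCAN and VIM passed the test with LPS than between the lines, as was the case among all genes tested, of which LPS changed 24.9% in shNT, 19.3% in shNR4A2 and 28.1% in shNR4A3 cells. In shNT cells, 9 of 27 genes of the VCAN list were higher and 6 lower with LPS, with 8 and 4 of 28 in shNR4A2 cells and 9 and 8 of 27 in shNR4A3 cells. For the VIM list the counts were 6 and 2 of 20, 4 and 2 of 21, and 5 and 1 of 19, and for the RPS6KA2 list 5 and 3, 4 and 1, and 5 and 4 of 25, which is 32%, 20% and 36% of the RPS6KA2 list. The HUNK list had 0 higher and 2 lower of 21, 0 and 3 of 22, and 1 and 5 of 22, and the IGSF10 list 2 and 2 of 9, 2 and 1 of 11, and 1 and 2 of 9. With replicate number as a block, beside 30.1% of all genes in shNR4A2 and 39.4% in shNR4A3 cells, the higher and lower counts became 9 and 7 in shNR4A2 cells and 9 and 9 in shNR4A3 cells for the VCAN list, and 6 and 2, and 8 and 3, for the VIM list. They became 4 and 3, and 6 and 6, for the RPS6KA2 list, 0 and 4, and 1 and 7, for the HUNK list, and 3 and 2 in each knockdown line for the IGSF10 list. Some counts moved with 1 library left out and no block. The lower genes then numbered 5 to 7 (VCAN list, shNR4A3 cells), 0 to 2 (VIM list, shNR4A2 cells) and 1 to 3 (RPS6KA2 list, shNT cells). The higher genes of the IGSF10 list numbered 1 to 4 in shNR4A2 cells. Of all genes tested, 3033 to 3461 were called in shNT, 2113 to 3375 in shNR4A2 and 3136 to 4863 in shNR4A3 cells. SDC4 rose by 4.18, 4.07 and 4.37 and IGSF6 by 2.62, 2.56 and 2.52 on the log2 scale in the 3 lines, and edgeR called each.

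Same-numbered libraries deviated together in each of these 4 comparisons, and with the replicate number as a block more genes passed, 23.6% and 28.1% of all genes in shNR4A2 cells and 14.8% and 21.8% in shNR4A3 cells, without and with LPS. The counts of the VCAN list then became 8 higher and 4 lower, 13 and 4, 4 and 5, and 7 and 4, in the order just given. Those of the VIM list became 8 and 1, 9 and 1, 2 and 4, and 3 and 1, and those of the RPS6KA2 list 6 and 3, 6 and 3, 4 and 0, and 4 and 3. Those of the HUNK list became 2 and 3, 2 and 3, 0 and 4, and 2 and 4, so that with the block the RPS6KA2 and the HUNK list each held genes on both sides in 3 of the 4 comparisons. The IGSF10 list had 4, 6, 3 and 3 genes higher and none lower. With 1 library left out and no block, the higher genes of the VCAN list numbered 3 to 6, 2 to 5, 1 to 2 and 0 to 6, and those of the VIM list 1 to 3, 0 to 5, 0 to 1 and 0 to 1. Of all genes tested, 517 to 1128, 342 to 1477, 649 to 975 and 383 to 1693 were called in the same fits. The lower genes numbered 1 to 2, 0 to 1, 3 to 4 and 2 to 4 in the VCAN list and 0 to 1, 0, 0 to 3 and 0 to 1 in the VIM list. In these fits the RPS6KA2 list had 0 to 1, 0 to 2, 2 and 1 to 3 genes higher and none lower, and the IGSF10 list 0 to 2, 0 to 3, 1 and 0 to 1 higher and none lower. The HUNK list had 1 to 2, 0 to 1, 2 to 3 and 2 to 3 genes lower, with up to 1 higher in shNR4A2 cells and up to 2 higher in shNR4A3 cells with LPS.

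Some markers of the monocytic line differed from shNT in the same comparisons. Of 10 such markers, 3 were higher in shNR4A2 cells without LPS and 2 with LPS, and 5 and 4 in shNR4A3 cells, beside 3.63%, 4.31%, 3.91% and 3.99% of all genes tested, and none was lower. Without the block, CD33, CD4, CD68, MPO and PTPRC (all but CD4 named after their values were seen) passed in none of the 4. Their log2 fold changes were -0.12 to 0.11, 0.06 to 0.15, 0.26 to 0.91, -0.29 to 0.31 and -0.18 to 0.11. With replicate number as a block not all of these stayed uncalled, since 6 of the 10 markers were then higher in shNR4A3 cells without LPS. LYZ (lysozyme) rose by 1.68 (SE 0.139, adjusted p = 6.22e-05) and 1.76 (SE 0.0923, adjusted p = 1.72e-05) in shNR4A2 cells and by 2.25 (SE 0.137, adjusted p = 6.72e-07) and 2.29 (SE 0.129, adjusted p = 2.03e-05) in shNR4A3 cells (edgeR). CSF1R, the receptor of macrophage colony-stimulating factor, rose by 0.77, 0.87, 1.02 and 1.10 in the same order (adjusted p = 0.00495, 0.0115, 0.000205 and 0.00121). The second of these did not hold without shNT LPS replicate 2 (adjusted p = 0.0548).

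CD14, SPI1 and ITGAM (the last named after its values were seen) made up the other calls, each lost in 3 or more of 6 fits with 1 library left out. The summed level of the 10 markers had medians of 315, 452 and 554 RPKM without LPS and 375, 566 and 704 with LPS in shNT, shNR4A2 and shNR4A3 cells, and the groups of a knockdown line and shNT did not overlap. The gene with the highest mean over all libraries was SPI1, the myeloid transcription factor PU.1, at 145, 167 and 188 RPKM in shNT, shNR4A2 and shNR4A3 control cells. LYZ went from 48.8 ± 2.11 RPKM in shNT to 156 ± 31.2 in shNR4A2 and 233 ± 52 in shNR4A3 control cells (SD, n = 3), and so made up most of the rise in the sum without LPS. With replicate number as a block the counts of higher markers became 5, 5, 6 and 5, with 1 lower in shNR4A2 cells without LPS, beside 23.6%, 28.1%, 14.8% and 21.8% of all genes called, and with 1 library left out they were 2 to 4, 1 to 4, 2 to 5 and 2 to 5. The part of these markers in the changes of the 5 genes was not tested.

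Genes that define other cell types were near the floor. The sum of 8 fibroblast and mesenchymal markers had medians between 0.441 and 0.841 RPKM in the 6 groups, led by PDGFRB at 0.137 to 0.264, against up to 110 RPKM for VIM. Sums of 5 epithelial markers had medians of 0.311 to 0.691 RPKM and sums of 6 T and B cell markers 1.43 to 1.84. For 4 erythroid markers the medians were 0 to 0.0415 RPKM, and no marker of any list was at 0 in all 18 libraries. None of these 23 markers passed the edgeR test in a comparison of a knockdown line with shNT, and 1 to 4 of each list, or 0 for the erythroid list, had enough counts to be tested. Of all genes tested, 6.45% to 7.23% were called, so the lack of calls among so few markers says little about them. LUM (lumican) stood at -1.46 in shNR4A2 cells with LPS once replicate number was a block (adjusted p = 0.024), with 15 counts in 3 libraries against 47 in shNT. DCN (decorin), with 51 counts against 20 in shNR4A3 cells with LPS, passed when no genes were filtered out (1.5, adjusted p = 0.0405) and without shNR4A3 LPS replicate 2 (1.84, adjusted p = 0.0241). DCN was named after its values were seen. Of 4 endothelial markers, PECAM1, which monocytes also express, made up nearly all of the sum, at 44.1 ± 7.46 RPKM in shNT control cells (SD, n = 3), and rose in shNR4A2 cells by 0.63 and 0.70 (adjusted p = 0.00936 and 0.0127, edgeR). KDR, the other endothelial gene called, fell in shNR4A2 cells without and with LPS and in shNR4A3 cells without LPS, with -2.26, -1.95 and -2.64 (adjusted p = 0.00605, 0.0191 and 0.000957). With LPS the PECAM1 call was lost in 2 and the KDR call in 3 of 6 fits with 1 library left out. Blocked on replicate number, PECAM1 was also higher in shNR4A3 cells in both states (0.30 and 0.37, adjusted p = 0.0258 and 0.00148) and KDR lower there with LPS (-1.31, adjusted p = 0.0309).

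Across the 18 libraries the levels of the 5 genes followed each other, which is a description, since the points share lines and treatments and the genes were chosen for a shared change. Pearson's r of log2 CPM was 0.92 for VCAN and RPS6KA2, 0.90 for HUNK and IGSF10, and -0.95 for RPS6KA2 with either HUNK or IGSF10. VIM with VCAN was the loosest pair, at 0.62.

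By Pearson's r among 16935 genes past the filter over all libraries, those with the highest r to VCAN were TRPS1 (0.985), LYZ (0.963) and EPB41L3 (0.959). TRPS1 encodes a GATA-type zinc finger protein and EPB41L3 a protein of the membrane skeleton. TRPS1 went from 1.69 ± 0.344 RPKM in shNT control cells to 3.58 ± 0.606 in shNR4A2 and 4.35 ± 0.511 in shNR4A3 control cells (SD, n = 3). For VIM they were AC090136.3 (0.965), TPM4 (0.961) and TIFAB (0.957), of which TPM4, a tropomyosin of the actin cytoskeleton, was at 43.3 ± 2.14 RPKM in shNT control cells and 103 ± 12.7 in shNR4A2 cells with LPS (SD, n = 3). For RPS6KA2 they were COX7C (0.960), EPB41L3 (0.955) and ARPC3 (0.955), a cytochrome c oxidase subunit, the membrane skeleton gene named above and an Arp2/3 subunit.

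HUNK was followed most closely by PGR (0.950), DACH1 (0.950) and MEIS2 (0.931), and IGSF10 by MSRB3 (0.959), PGR (0.952) and APBA2 (0.943). PGR, the progesterone receptor, thus stood near both of the lowered genes, at 1.73 ± 0.326 RPKM in shNT control cells against 0.419 ± 0.0128 in shNR4A2 and 0.452 ± 0.11 in shNR4A3 control cells (SD, n = 3). DACH1 and MEIS2 are transcription factors, and MSRB3 is a methionine sulfoxide reductase, at 9.61 ± 1.19 RPKM in shNT control cells and 1.91 ± 0.141 in shNR4A3 control cells (SD, n = 3). Ranked by Spearman's rho, TRPS1 was again first for VCAN and the 3 genes of VIM held ranks 2 and 3, while the other 11 places ranked from 5 to 268.

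Neighbours on the chromosome were tested in the same fits. Of 195 genes within 1 Mb of any of the 5, edgeR called 0 of the 44 tested in shNR4A2 cells without LPS (0%), 1 of 41 with LPS (2.44%), and 1 of 42 (2.38%) and 2 of 42 (4.76%) in shNR4A3 cells, beside 6.45%, 6.96%, 7.23% and 6.45% of all genes. With the block the counts were 6, 7, 5 and 7, beside 23.6%, 28.1%, 14.8% and 21.8% of all genes. TMEM167A, 1 of 3 tested neighbours of VCAN, was the one called in more than 1 comparison, and rose in shNR4A3 cells by 0.41 (SE 0.0879, adjusted p = 0.0131) without LPS and by 0.31 (SE 0.0759, adjusted p = 0.0415) with LPS.

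Some of the 5 share exon sequence with genes on the opposite strand, and the strand setting of the counting is not given in the sources used here, so that reads there may have been assigned to neither or to the other gene. VIM-AS1 shares 641 exon bases with VIM and had 54 to 138 counts a library, against 2701 or more for VIM. MED12L shares 3634 exon bases with IGSF10 and had 9 to 33 counts a library. IGSF10 itself had 10 to 38 counts in the knockdown libraries, a similar size, and 91 to 193 in the shNT libraries. VCAN-AS1, with 453 shared bases, had 5 counts in all 18 libraries together.

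Because the hairpins target factors that bind DNA, the promoter windows of RefSeq (GRCh38.p14, 250 bases before to 50 after each start) were searched for the NBRE, AAAGGTCA, and for its first 7 letters, AAAGGTC, on both strands. The shorter motif is contained in the longer. All 5 genes were found by symbol among these windows, with 9 windows in all. None of the 9 held AAAGGTCA, which stood in 427 of 35116 promoter windows (1.22%). The windows of RPS6KA2 lay around starts 43926 to 361761 bases from the start of the gene in the deposited table. For IGSF10 these distances were 2352 to 80607 bases. For VCAN the distance was 279 bases and for HUNK 295 bases, also beyond the window. Of the 5 genes, only VIM, at 18 bases, had its start in that table inside a window searched. AAAGGTC stood in 1 of the 9, a window of HUNK, and in 1059 of 35116 windows (3.02%). The 250 bases before that start are shown with the letters AAAGGTC in capitals (GRCh38.p14, chr21:31872770-31873019, plus strand), and the match begins 217 bases before the start. The start at 31873020 lies 295 bases before the start of HUNK in the deposited table. The bases before the VIM start (GRCh38.p14, chr10:17227991-17228240, plus strand), a gene that was higher and whose window holds no match, are shown beside it.

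HUNK: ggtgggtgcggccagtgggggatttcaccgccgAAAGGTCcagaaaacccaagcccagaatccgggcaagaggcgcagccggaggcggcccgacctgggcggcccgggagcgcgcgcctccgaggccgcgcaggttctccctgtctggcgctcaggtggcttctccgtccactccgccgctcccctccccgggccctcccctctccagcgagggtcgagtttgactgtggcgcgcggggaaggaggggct
VIM: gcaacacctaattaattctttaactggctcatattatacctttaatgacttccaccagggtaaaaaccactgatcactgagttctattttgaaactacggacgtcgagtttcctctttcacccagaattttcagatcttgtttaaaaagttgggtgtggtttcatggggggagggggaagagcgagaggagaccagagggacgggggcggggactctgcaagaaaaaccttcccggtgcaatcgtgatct

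In the HUNK window the 7 letters are followed by C, giving AAAGGTCC. A match is a run of letters and not a measured binding site, and the lack of one says only that these letters are not in the window.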

How the data were processed

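The authors sequenced polyadenylated RNA of 18 THP-1 libraries from both ends (HiSeq, 2x150 bp) and deposited tables of raw counts, whole numbers for each Ensembl gene, with GRCh38 positions and exon lengths. The submitters' processing notes name Trimmomatic 0.36, STAR 2.5.2b, featureCounts and Subread 1.5.2. Library totals ran from 16171161 to 23929138, and genes of a few counts are measured with little precision. Symbols came from GENCODE 29 for 56898 genes.

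Groups were compared with edgeR 4.0.16 in R 4.3.3 (filterByExpr, TMM, quasi-likelihood F test, Benjamini-Hochberg over all genes tested, limit 0.05), each comparison on its own libraries. The SE is the log2 fold change over the root of F. RPKM used TMM library sizes over 18 libraries. As alternatives each library was left out, the filter was dropped, all 18 libraries entered 1 fit, replicate number was added as a block, RLE size factors replaced TMM, and DESeq2 1.42.0 replaced edgeR. The procedure was tested on simulated data that had the same relative spread for every gene and no pairing of replicates. That test therefore does not cover the block or a spread that differs between genes. Replicate numbers were taken to pair libraries where residuals of every same-numbered pair had r over 0.1, which held in 8 of 9 pairwise comparisons and not for LPS in shNT cells (lowest r 0.0598).

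The 5 genes, the lists and the tests were chosen with earlier results of these data known. Named genes were the 5, the hairpin targets, TNF and CCL20, overlapping genes, the 3 most alike genes of each (Pearson's r of log2 CPM, prior count 2), the 3 most abundant genes of each list by TPM with up to 3 called in the most knockdown comparisons, and neighbours within 1 Mb called at least 2 times. Genes of the marker lists were named by the same rule, with some exceptions. CD33, CD68, MPO, PTPRC, ITGAM and DCN were named after their values were seen. No protein sequence is given.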

Additional observations from a re-analysis of the deposited data

How the results depend on the processing

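Of the 5 genes, those whose call changed are given with their values in the report, and the direction of their change against shNT was the same under each alternative run. With the replicate block, the number of genes called became 4751 (3050 without it) for LPS in shNR4A2 cells, 3733 (1019) and 4385 (1085) for shNR4A2 against shNT without and with LPS, 2267 (1108) and 3401 (1005) for shNR4A3 against shNT, 1800 (480) and 3666 (362) for shNR4A2 against shNR4A3, and 8 and 22 (0 and 0) for the interactions in shNR4A2 and shNR4A3. For LPS in shNT cells, where the numbers were not taken to pair the libraries, it became 5029 (3909). Nor were the numbers taken to pair the libraries of the interactions (lowest r 0.0174 for shNR4A2 and 0.0266 for shNR4A3). Without a filter the counts were 1611 and 1843 for shNR4A2 against shNT, 1839 for shNR4A3 against shNT with LPS, 838 and 1102 for shNR4A2 against shNR4A3, and 29 and 138 for the interactions. With all 18 libraries in 1 fit they were 4601 for LPS in shNR4A2 cells, 1691 for shNR4A2 against shNT with LPS and 1032 for shNR4A2 against shNR4A3 with LPS. DESeq2 called 700 in the latter and 2 and 10 in the interactions. The cause of these shifts was not tested.

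Over the fits that each lacked 1 library, the counts ran from 3033 to 3461 (LPS in shNT cells), 2113 to 3375 (shNR4A2) and 3136 to 4863 (shNR4A3), from 517 to 1128 and 342 to 1477 for shNR4A2 against shNT without and with LPS, 649 to 975 and 383 to 1693 for shNR4A3 against shNT, 249 to 470 and 94 to 217 for shNR4A2 against shNR4A3, and 0 to 8 and 0 to 44 for the interactions. The sign of some log2 fold changes that passed no test turned in these fits. For LPS the ranges were -0.35 to 0.06 (HUNK) and -0.13 to 0.37 (IGSF10) in shNR4A2 cells, and -0.11 to 0.08 (VCAN) and -0.43 to 0.08 (IGSF10) in shNR4A3 cells. Between the knockdown lines they were -0.04 to 0.2 (RPS6KA2) and -0.44 to 0.03 (HUNK) without LPS and -0.12 to 0.00 (RPS6KA2) with LPS. For the interaction they were -0.1 to 0.23 (VCAN) and -0.23 to 0.07 (RPS6KA2) in shNR4A2 cells and -0.06 to 0.22 (RPS6KA2) and -0.05 to 0.46 (IGSF10) in shNR4A3 cells. Depth limits HUNK and IGSF10, at 8 to 38 counts in the knockdown libraries.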
